A study of Mus musculus with 84 samples.

Results

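The first 3 days of reprogramming by Myc, Klf4, Oct4 and Sox2 (MKOS) were examined here. Wild-type fibroblasts were compared with sorted MKOS-expressing cells on day 3. The latter derived from other fibroblasts that carry an inducible cassette, so the wild-type group was not their own state before induction. The members are the 9 wells titled as mouse embryonic fibroblasts (MEFs) and the 9 wells titled as day 3 with the BFP control vector, 18 of the 84 wells of the series. The 3 wells that carried the same replicate number were summed, which gave 3 MEF libraries and 3 libraries of control cells on day 3 (Cont day 3), 6 of 30 libraries. The series measured gene expression with STRT RNA-seq, which counts sequence tags at the 5′ ends of poly(A) transcripts, in 10 groups, namely MEFs, ESCs, and cells under reprogramming on days 3, 6, 8 and 10 that carried either the control vector or constitutively active Smad3. Its purpose was to follow how Smad3 acts on a change of cell identity. The comparison of MEF with Cont day 3 holds the differences found without the Smad3 vector.

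The MEFs were wild-type fibroblasts of strain background 129, grown in MEF medium with FGF2 and heparin, and they received neither doxycycline nor vector. The Cont day 3 cells derived from TNG MKOS MEFs, which came from chimeric embryos of mixed sexes, carry a Nanog-GFP allele and express MKOS with the fluorescent reporter mOrange from a doxycycline-inducible cassette placed, with CAG-driven rtTA, at the Sp3 locus. They were mixed with an excess of wild-type MEFs, infected with the BFP vector, grown in ES cell medium with LIF, doxycycline and vitamin C, trypsinized and sorted for mOrange on day 3. For the MEFs the design text names no sort, while the extract protocol speaks of flow sorting in general. Sorting, medium, vector, genetic background and MKOS therefore changed together between the groups, and their effects cannot be told apart in this comparison. A lower value in these bulk libraries can come from fewer cells of a type or from less RNA in each cell, which also cannot be told apart.

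Fibroblasts make collagen-rich matrix and keep an actin-based contractile system that is driven by SRF and by TGF-β signaling. In reprogramming they lose these features and gain epithelial junctions, the mesenchymal-to-epithelial transition (MET), before genes of the pluripotency network are expressed. Myc, among the MKOS factors, drives genes of the nucleolus, where ribosomes are assembled, through E-boxes near their start sites.

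Promoters of contractile genes, most of which fell, and of nucleolar genes, most of which rose, are shown first. They are RefSeq windows of the build GRCm38.p6, from 250 bases before to 50 bases after the start site, read 5′ to 3′ on the strand of the gene, with the motif in capitals. The first set holds contractile genes that fell and have a CArG box, the binding motif of SRF.
Myl9, chr2:156775214-156775513, plus strand: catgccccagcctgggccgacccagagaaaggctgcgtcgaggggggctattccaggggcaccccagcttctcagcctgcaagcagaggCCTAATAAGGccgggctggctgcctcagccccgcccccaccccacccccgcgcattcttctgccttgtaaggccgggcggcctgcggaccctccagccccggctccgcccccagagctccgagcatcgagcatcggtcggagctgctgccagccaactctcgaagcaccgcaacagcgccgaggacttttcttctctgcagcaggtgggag
Acta1, chr8:123894726-123895025, minus strand: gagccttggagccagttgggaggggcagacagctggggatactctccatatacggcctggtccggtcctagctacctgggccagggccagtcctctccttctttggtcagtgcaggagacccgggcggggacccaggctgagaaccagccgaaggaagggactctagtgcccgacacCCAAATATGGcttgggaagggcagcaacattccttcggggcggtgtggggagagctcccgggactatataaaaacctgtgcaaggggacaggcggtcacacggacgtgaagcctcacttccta
Actc1, chr2:114052826-114053125, minus strand: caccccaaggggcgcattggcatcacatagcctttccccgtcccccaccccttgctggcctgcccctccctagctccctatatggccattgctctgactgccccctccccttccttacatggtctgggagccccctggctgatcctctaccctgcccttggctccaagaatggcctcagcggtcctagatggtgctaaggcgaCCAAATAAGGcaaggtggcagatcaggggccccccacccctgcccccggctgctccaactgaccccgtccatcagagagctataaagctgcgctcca
The second set holds nucleolar genes that rose and have the E-box CACGTG.
Grwd1, chr7:45830740-45831039, minus strand: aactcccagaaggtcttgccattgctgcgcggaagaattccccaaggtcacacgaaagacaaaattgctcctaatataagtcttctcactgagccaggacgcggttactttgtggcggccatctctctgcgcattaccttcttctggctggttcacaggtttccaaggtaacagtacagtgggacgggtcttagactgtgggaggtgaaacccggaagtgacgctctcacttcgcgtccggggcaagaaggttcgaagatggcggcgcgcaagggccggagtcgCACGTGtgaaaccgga
Mybbp1a, chr11:72441077-72441376, plus strand: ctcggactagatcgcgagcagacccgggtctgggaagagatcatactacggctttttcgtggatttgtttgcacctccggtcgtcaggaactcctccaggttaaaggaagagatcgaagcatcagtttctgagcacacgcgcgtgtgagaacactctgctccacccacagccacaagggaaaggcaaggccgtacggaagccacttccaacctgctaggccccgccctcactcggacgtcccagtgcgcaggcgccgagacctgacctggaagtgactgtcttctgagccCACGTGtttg
Imp4, chr1:34439579-34439878, plus strand: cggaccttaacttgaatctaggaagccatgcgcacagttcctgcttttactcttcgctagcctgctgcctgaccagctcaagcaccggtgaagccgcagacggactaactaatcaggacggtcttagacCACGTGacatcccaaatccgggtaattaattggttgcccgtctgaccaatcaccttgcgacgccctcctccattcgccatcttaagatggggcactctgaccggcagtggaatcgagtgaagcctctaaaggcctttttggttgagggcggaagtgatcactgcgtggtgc
Both motifs were searched on both strands of every window. The CArG box was found in the windows of 6 of 21 smooth muscle and actin contractile genes matched by symbol (28.6%) and in those of 1.81% of all 27025 genes with a window. The E-box was found in 10 of 47 matched nucleolar genes (21.3%) and in 8.09% of all genes with a window, but also in 12.8% of the 6557 matched genes that were tested. These matches describe the sequence and do not show that a factor was bound.

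The MEF libraries held 1598061 to 1666346 reads and the Cont day 3 libraries 1288666 to 1935592. Reads were recorded for 12432 to 12792 genes per MEF library and 12615 to 13234 per Cont day 3 library, a difference within the spread of the libraries (exact permutation test, two-sided, p = 0.2; 0.1 is the smallest p that 3 libraries against 3 allow). The share of reads from mitochondrially encoded genes was 8.74% ± 0.526 (SD, n = 3) in MEFs and 18.0% ± 0.917 in Cont day 3, with no overlap (exact p = 0.1). MEF library 3 stood apart from the other MEF libraries: its counts differed from theirs with a chi-square per degree of freedom of 8.28 to 8.71, against 2.86 between MEF libraries 1 and 2 and 2.59 to 3.33 among Cont day 3 libraries. Values per library below are normalized counts, that is reads divided by a size factor of the library.

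Changes were widespread and went both ways. Of 8776 genes with enough reads, 4491 were called, of which 2171 were higher in Cont day 3 (24.7%) and 2320 were lower (26.4%) at an adjusted p under 0.05 (quasi-likelihood test of edgeR, p-values adjusted by Benjamini-Hochberg, as for every adjusted p below). The other 4285 were not called, and the median log2 fold change of all tested genes was -0.03. The calls were thus split at 48.3% higher, a share that ran from 44.1% to 52.1% with other scalings or tests. Changes of more than 2-fold were called for 1465 genes that were higher (16.7%) and 1774 that were lower (20.2%). Among these, 459 rose and 738 fell by more than 4-fold, and 147 rose and 120 fell by more than 16-fold. The 3 libraries of a group lay wholly above or below those of the other for 5054 genes (57.6%). No read was found in the MEF libraries for 51 of the tested genes and none in the Cont day 3 libraries for 7, and since such a gene can pass the filter on low counts only through the group where it is high, its call is a description.

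**Figure D1:**
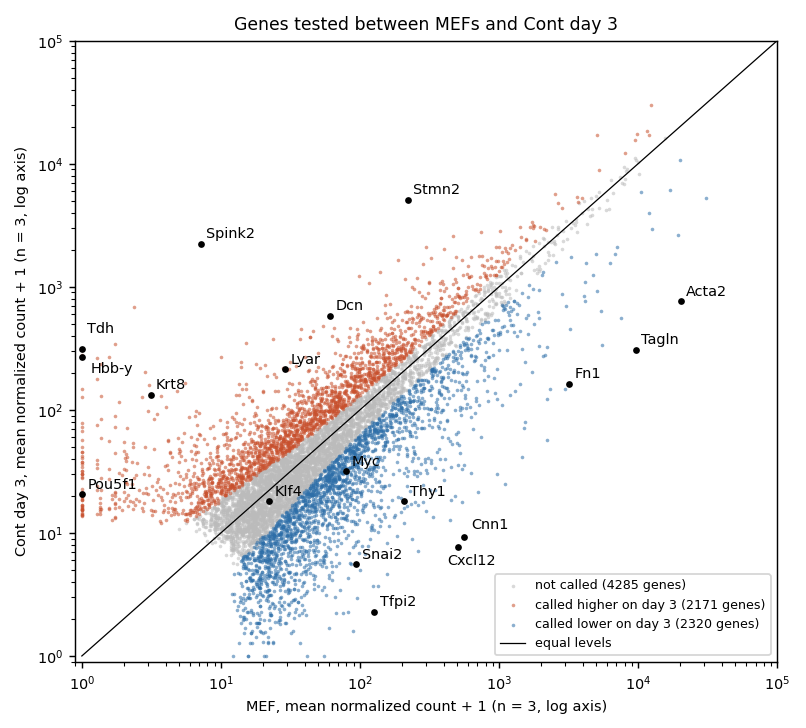
Mean normalized count + 1 of each tested gene in MEFs (horizontal axis) and Cont day 3 (vertical axis), n = 3 libraries each, both axes logarithmic. Points above the line of equal levels were higher on day 3, red points (2171 genes) and blue points (2320 genes) were called higher and lower, and black points are named genes.

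Of the MKOS factors, Pou5f1 (which encodes Oct4) and Sox2 were higher on day 3, Myc was lower and Klf4 was not called. Pou5f1 had no read in MEFs and normalized counts of 25.0, 14.3 and 19.5 in the Cont day 3 libraries, at least 5.87-fold higher. It could pass the filter on low counts only through day 3, so its call is a description. Sox2 had 0, 2.17 and 0.864 in MEFs and 23.2, 13.0 and 25.2 on day 3, a ratio of 21.3 (exact 95% counting interval 6.98 to 106, adjusted p = 3.20e-07). Its fitted log2 fold change went from 4.32 to 5.22 without MEF library 2. Both genes were near 0 in MEFs and higher in every day 3 library.

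Myc had 92.2, 73.8 and 70.9 in MEFs and 25.0, 37.6 and 29.3 on day 3, so every day 3 library was below every MEF library (log2 fold change -1.26, SE 0.28, adjusted p = 0.000139). Klf4 had 27.8, 16.3 and 19.9 in MEFs and 13.4, 18.2 and 19.5 on day 3, and the groups overlapped (log2 fold change -0.21, SE 0.41, adjusted p = 0.699). Whether transcripts of the cassette were counted under these 4 genes was not tested, so the values cannot be read as levels of the endogenous genes. Nanog, a factor of the late pluripotency network, had 1 read in the MEF libraries together and 0 reads on day 3. Smad2, the relative of Smad3 in the same pathway, had 62.2, 49.9 and 57.0 in MEFs and 54.4, 51.9 and 50.4 on day 3 and was not called (adjusted p = 0.989). Sp3, the gene at whose locus the cassette lies, had 33.3, 42.3 and 19.013 in MEFs and 25.0, 19.5 and 22.8 on day 3 and was not called (adjusted p = 0.438). Smad3, the gene that the other vector of the series carries, was lower on day 3, with 25.6, 28.2 and 42.3 in MEFs and 18.7, 5.19 and 8.94 in Cont day 3 (log2 fold change -1.39, SE 0.42, adjusted p = 0.00459).

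Contractile genes of the fibroblasts were lower almost throughout. Of 25 smooth muscle and actin contractile genes, all tested, 23 were lower on day 3 and none was higher, with a median log2 fold change of -3.58. Acta2, smooth muscle actin, had 22826, 22462 and 15619 in MEFs and 546, 1065 and 677 on day 3 (log2 fold change -4.62, SE 0.28, adjusted p = 4.15e-21). Tagln, the actin-bundling protein transgelin, had 10717, 11182 and 7127 in MEFs and 226, 433 and 261 on day 3 (log2 fold change -4.87, SE 0.27, adjusted p = 2.23e-22).

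Cnn1, the smooth muscle actin-binding protein calponin, had 563, 673 and 448 in MEFs and 5.35, 9.08 and 10.6 on day 3, a larger fall than that of either (log2 fold change -5.94, SE 0.29, adjusted p = 2.40e-24). Myl9, the regulatory light chain of smooth muscle myosin (chromosome 2, 156775420 to 156781658, + strand, GRCm38), had 2576, 2537 and 1525 in MEFs and 43.7, 83.0 and 42.3 on day 3 (log2 fold change -5.22, SE 0.27, adjusted p = 1.17e-23). Acta1, skeletal muscle actin (chromosome 8, 123891769 to 123894751, - strand), had 823, 759.8 and 533 in MEFs and 16.045, 33.7 and 11.4 on day 3 (log2 fold change -5.08, SE 0.28, adjusted p = 1.86e-22). Those 2 genes and Actc1, cardiac actin, have the CArG boxes shown above, which begin at positions -161, -73 and -47 from the start site of Myl9, Acta1 and Actc1. Mylk, the kinase that activates myosin in smooth muscle, had 61 reads in MEFs and 1 on day 3. In MEF library 3, Acta2, Tagln and Myl9 were lower than in the other MEF libraries, but still above every day 3 library.

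Target genes of TGF-β, SRF and YAP fell as well: 17 of 21 tested were lower, none was higher, and the median was -2.65. Ankrd1, a nuclear protein induced by YAP and by stretch, had 1326, 1012 and 981 in MEFs and 26.7, 22.1 and 22.8 on day 3 (log2 fold change -5.40, SE 0.26, adjusted p = 6.52e-25). Ctgf, a secreted matrix-associated growth regulator, had 1489.8, 1399 and 1715 in MEFs and 62.4, 88.2 and 83.7 on day 3 (log2 fold change -4.19, SE 0.23, adjusted p = 2.12e-22). For both of these genes the lowest MEF library was more than 10 times the highest day 3 library. Inhba, which encodes a subunit of activins, was lower with a log2 fold change of -4.33, and Ltbp2, a binding protein of latent TGF-β, with -5.18.

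Matrix genes were lower with few exceptions. Of 32 tested genes for fibrillar collagens and matrix proteins, 30 were lower and 1 was higher, with a median of -3.08. Fn1, fibronectin, had 3246, 2713 and 3591 in MEFs and 159, 169.9 and 157 on day 3 (log2 fold change -4.18, SE 0.23, adjusted p = 2.12e-22). Col1a2, a chain of type I collagen, had 2181, 2000.5 and 2753 in MEFs and 119, 167 and 151 on day 3 (log2 fold change -3.88, SE 0.23, adjusted p = 4.07e-21). Fbln5, a fibulin of elastic fibers, had 444, 492 and 514 in MEFs and 7.13, 29.8 and 20.3 on day 3 (log2 fold change -4.60, SE 0.28, adjusted p = 7.00e-21). The 3 day 3 libraries were close to each other for Fn1 and Col1a2, and far below each MEF library.

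The exception was Dcn, decorin, a small proteoglycan that binds collagen fibrils and is common in fibroblasts. It had 67.8, 92.3 and 19.9 in MEFs and 455, 608 and 683 on day 3, higher in every day 3 library (log2 fold change 3.42, SE 0.27, adjusted p = 5.09e-16). Its nearest relative in the list, Bgn, biglycan, moved the other way, from 3404, 3076 and 2467 in MEFs to 156, 161 and 127 on day 3 (log2 fold change -4.22, SE 0.23, adjusted p = 2.23e-22). Of 18 tested matrix proteases and inhibitors, 16 were lower and none was higher (median -2.01). Mmp2, a gelatinase, fell (log2 fold change -2.64, adjusted p = 1.06e-12), as did Mmp14, its membrane-bound activator (log2 fold change -2.64, adjusted p = 3.30e-11), and Plat, tissue plasminogen activator (log2 fold change -3.41, adjusted p = 1.21e-13).

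Surface and cytoskeletal markers of fibroblasts were also lower, with 16 of 17 tested lower, 1 higher and a median of -2.34. Thy1, a surface glycoprotein used to follow fibroblasts in reprogramming, had 221, 178 and 223 in MEFs and 16.045, 22.1 and 13.0 on day 3 (log2 fold change -3.52, SE 0.27, adjusted p = 1.14e-16). Pdgfrb, the receptor of PDGF-B, had 176 reads in MEFs and 2 on day 3, a ratio of MEF to day 3 of 92.3 (exact 95% counting interval 25.2 to 768, adjusted p = 1.96e-13). Its fitted log2 fold change went from -6.16 to -5.56 without Cont day 3 library 1. Cdh11, a cadherin of mesenchymal cells, had 376, 388 and 442 in MEFs and 21.4, 27.2 and 29.3 on day 3 (log2 fold change -3.83, SE 0.24, adjusted p = 5.69e-20). S100a4, also known as fibroblast-specific protein, was the member that rose, with 551, 546 and 423 in MEFs and 568, 974 and 978 on day 3 (log2 fold change 0.84, SE 0.21, adjusted p = 0.000568).

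Cd44, a hyaluronan receptor that the study used as a surface marker of reprogramming stages, had 451, 442 and 513 in MEFs and 299.5, 310.0 and 293 on day 3. Its fall was small (log2 fold change -0.53, SE 0.19, adjusted p = 0.0204), and it was no longer called without Cont day 3 library 1, 2 or 3 (adjusted p = 0.122, 0.082 and 0.105), without the filter on low counts, or in plate row B wells alone. Icam1, the adhesion molecule used with it, had 17.8, 14.1 and 15.6 in MEFs and 21.4, 22.1 and 13.8 on day 3 and was not called (adjusted p = 0.485).

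Transcription factors of mesenchymal cells were lower too, with a median closer to 0 than those of the groups above. Of 15 tested regulators, 11 were lower, none was higher, and the median was -1.64. Snai2 (Slug), a repressor of epithelial genes, had 82.2, 87.9 and 109.8 in MEFs and 3.57, 5.19 and 4.88 on day 3 (log2 fold change -4.23, SE 0.37, adjusted p = 1.58e-14). Prrx1, a homeobox factor of limb and craniofacial mesenchyme, had 253, 325 and 445 in MEFs and 75.8, 98.6 and 78.0 on day 3 (log2 fold change -1.92, SE 0.22, adjusted p = 1.75e-10). Snai1 fell (log2 fold change -2.08, adjusted p = 0.000459) and so did Zeb2, another repressor of Cdh1 (log2 fold change -2.02, adjusted p = 6.84e-06).

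Secreted signals of fibroblasts fell with them: 16 of 18 tested cytokines, chemokines and growth factors were lower, 1 was higher, and the median was -2.64. Cxcl12, the chemokine by which stromal cells retain CXCR4-positive cells (chromosome 6, 117168535 to 117181367, + strand), had 468, 441 and 612 in MEFs and 7.13, 6.49 and 6.50 on day 3 (log2 fold change -6.10, SE 0.30, adjusted p = 1.44e-24). Il6 fell (log2 fold change -3.27, adjusted p = 2.39e-08; -2.66 without Cont day 3 library 3), as did Igf1, insulin-like growth factor (log2 fold change -3.09, adjusted p = 1.79e-10). Ccl7, a chemokine for monocytes, was higher, with 439.9, 233 and 133 in MEFs and 554, 563 and 495 on day 3 (log2 fold change 1.12, SE 0.24, adjusted p = 6.68e-05). The MEF libraries differed by more than 3-fold in Ccl7, and the highest was close to the lowest day 3 library. By DESeq2's Wald test the adjusted p of Ccl7 was 0.048.

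Most genes listed for FGF-ERK signaling and its feedback that could be tested were lower. Of 10 tested, 6 were lower and 1, Ccnd1, was higher (median -1.68), while 13 had too few reads. Called lower were 10 by DESeq2's Wald test, without the filter on low counts, or without Cont day 3 library 2. Apart from single plate rows, the number lower ran from 5 to 10 over the alternatives. The list also holds a receptor and a ligand, so the count is not a measure of ERK activity. Dusp6, the phosphatase that ERK induces against itself, had 109, 53.2 and 72.6 in MEFs and 9.81, 16.9 and 11.4 on day 3 (log2 fold change -2.53, SE 0.34, adjusted p = 6.92e-09). Fgfr1, the main FGF receptor of fibroblasts, fell (log2 fold change -2.15, adjusted p = 3.30e-08) and so did Fgf7, a growth factor that stroma secretes for epithelia (log2 fold change -3.71, adjusted p = 1.84e-15). Of 10 tested LIF-STAT3 response genes, 2 were higher and 3 lower (median -0.10), near the shares over all genes tested (24.7% and 26.4%). Socs3, the feedback inhibitor that STAT3 induces, rose from 3.33, 8.68 and 4.32 in MEFs to 20.5, 27.2 and 17.9 on day 3 (log2 fold change 2.09, SE 0.50, adjusted p = 0.000389), whereas Stat3 itself fell (log2 fold change -0.83, adjusted p = 0.00235) and so did Osmr, the oncostatin M receptor (log2 fold change -1.79, adjusted p = 5.42e-07).

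AP-1 and immediate early genes were lower in 9 and higher in 3 of 18 tested (median -0.76). The shares over all genes tested were 26.4% lower and 24.7% higher. Klf6, a zinc finger factor induced by serum, had 474, 453 and 456 in MEFs and 44.6, 51.9 and 59.3 on day 3 (log2 fold change -3.03, SE 0.22, adjusted p = 2.15e-17). Fosl2, an AP-1 subunit, fell (log2 fold change -1.36, adjusted p = 1.85e-05) and so did Srf, which encodes the factor that binds CArG boxes (log2 fold change -1.94, adjusted p = 0.000272). Jun, another AP-1 subunit, was called higher, by less than 2-fold. Atf3, a stress-induced factor of the same family, rose from 6.67, 5.43 and 6.91 in MEFs to 33.0, 20.8 and 42.3 on day 3 (log2 fold change 2.45, SE 0.45, adjusted p = 7.00e-06). Every Srf value on day 3 was below the lowest MEF value, and every Atf3 value above the highest. Such a lack of overlap was found for 57.6% of all genes tested.

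The largest falls included genes of these groups. By the rule used here, namely the 12 largest changes each way among called genes whose higher group averaged 100 normalized counts or more and whose libraries did not overlap, they were Tfpi2 (-6.37 on the log2 scale), Cxcl12, Cnn1, Tll1 (-5.52), Ankrd1, Serpinf1 (-5.33), Nexn (-5.25), Myl9, Ltbp2, Cthrc1 (-5.10), Tnc and Acta1. Tfpi2, a protease inhibitor of the matrix (chromosome 6, 3962595 to 3988919, - strand), had 163, 151 and 64.0 in MEFs and 1.78, 1.30 and 0.813 on day 3. Serpinf1 encodes a secreted factor that opposes vessel growth, Tll1 a protease that matures collagens, Nexn an actin-binding protein and Cthrc1 a secreted protein of collagen-forming cells.

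**Figure D2:**
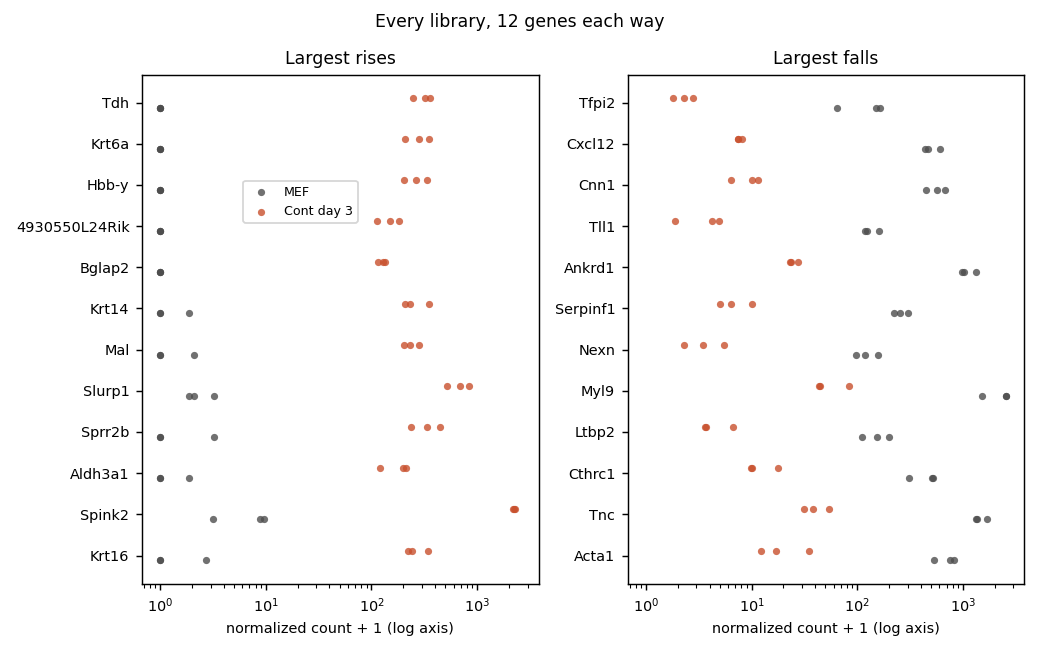
Normalized count + 1 (logarithmic axis) in each of the 3 MEF libraries (grey) and 3 Cont day 3 libraries (red) for the 12 largest rises and the 12 largest falls, in order of size. MEF libraries at or near 0 reads sit at the left edge for the rises, and no gene shown has overlapping groups.

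Epithelial genes rose from little or nothing, although most of the list stayed too low to test. Of 39 genes of epithelial junctions and MET, 13 were tested, 10 of them were higher and none was lower, with a median of 4.14 (3.36 with genes at 0 in MEFs set to their lower bound), and 21 of the 39 had no read in any MEF library. Dsp, desmoplakin, which ties desmosomes to keratin filaments, had 6.67, 10.9 and 9.51 in MEFs and 258, 293 and 246 on day 3 (log2 fold change 4.97, SE 0.29, adjusted p = 1.24e-21). Cldn3, a tight junction claudin, had no read in MEFs and 46.4, 53.2 and 35.0 on day 3, at least 13.5-fold higher. Dsc2, a desmosomal cadherin, had 2 reads in MEFs and 225 on day 3, a ratio of 107 (exact 95% counting interval 29.4 to 891). Its MEF reads all lay in library 2, and the fitted log2 fold change went from 6.61 to 9.27 without that library and to 6.00 without MEF library 3.

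Cdh1, E-cadherin, the adhesion molecule that defines MET, had 0, 0 and 2.59 in MEFs and 14.3, 14.3 and 25.2 on day 3, a ratio of 18.4 (exact 95% counting interval 6.00 to 92.0, adjusted p = 1.75e-06). All 3 day 3 libraries were above the MEF libraries. The MEF reads all lay in library 3, and the fitted log2 fold change went from 4.14 to 7.23 without it. Esrp2, a splicing factor of epithelia, rose from 2.22, 0 and 4.32 in MEFs to 21.4, 27.2 and 21.1 on day 3 (log2 fold change 3.36, SE 0.58, adjusted p = 2.69e-06; 4.36 without MEF library 3), and Itgb4, the integrin subunit of hemidesmosomes, had 3 reads in MEFs and 120 on day 3 (log2 fold change 5.23, adjusted p = 1.36e-10; 6.15 without MEF library 1). In the fit of all 30 libraries 17 members were higher and 2 lower. A gene absent from MEFs can pass the filter on low counts only through day 3, so the count among tested genes is a description here. The 3 tested members that were not called included Jup and Spint2, which are given here after their values were seen.

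Keratins, the intermediate filaments of epithelia, included 3 of the 12 largest rises. Of 11 tested keratin and squamous genes among 25 in the table, 9 were higher and 1 was lower, with a median of 6.05, or 3.59 with genes at 0 in MEFs set to their lower bound. Of the 25, 11 had no read in any MEF library and could be tested only through day 3, so this count is a description. Of all genes tested, 24.7% were higher. Krt6a, a keratin of activated and wounded epidermis (chromosome 15, 101689910 to 101694307, - strand), had no read in MEFs and 206, 352 and 282 on day 3, at least 84.0-fold higher. Krt14, the keratin of basal epidermal cells, had 1 read in MEFs and normalized counts of 209, 348 and 229 on day 3. Krt16, a partner of Krt6a, had 2 reads in MEFs and 222, 344 and 243 on day 3. Krt5, the usual partner of Krt14, had 0 reads on day 3, and Trp63, the master regulator of basal epidermis, had 0; both are named after their values were seen.

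The keratins of simple epithelia moved apart. Krt8 had 3.33, 2.17 and 0.864 in MEFs and 131, 153 and 112 on day 3, higher in every library (log2 fold change 6.05, SE 0.40, adjusted p = 3.89e-19). Its partner Krt18 had 76.7, 39.1 and 70.9 in MEFs and 8.91, 11.7 and 11.4 on day 3, lower in every library (log2 fold change -2.43, SE 0.36, adjusted p = 8.41e-08). Krt18 has processed pseudogenes, and how the authors' counting assigned reads of such copies was not tested.

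The other largest rises were genes of several tissues. Tdh, threonine dehydrogenase, is the mitochondrial enzyme on which mouse ESCs depend for threonine catabolism (chromosome 14, 63492347 to 63509092, - strand). It had no read in MEFs and 356, 323 and 248 on day 3, at least 92.7-fold higher. Hbb-y, an embryonic β-globin, had no read in MEFs and 335, 265 and 202 on day 3, at least 80.1-fold higher. Tdh and Hbb-y could pass the filter on low counts only through day 3, so their calls are descriptions. Spink2, a protease inhibitor best known in the testis, had 7.78, 2.17 and 8.64 in MEFs and 2299, 2223 and 2186 on day 3 (log2 fold change 8.55, SE 0.32, adjusted p = 1.71e-29). The 3 Spink2 values on day 3 lay close together and far above every MEF library.

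Slurp1, a secreted protein of keratinocytes, had 2.22, 1.09 and 0.864 in MEFs and 688, 838 and 517 on day 3 (log2 fold change 8.96, SE 0.38, adjusted p = 2.16e-27). Mal, a lipid raft protein of polarized membranes, had 1 read in MEFs and 201, 229.6 and 279 on day 3, and Aldh3a1, an aldehyde dehydrogenase of cornea and squamous epithelia, had 1 read and 196, 213 and 120.3. Sprr2b, a precursor of the cornified envelope, had 2 reads in MEFs and 238, 331 and 448 on day 3. The uncharacterized gene 4930550L24Rik on chromosome X rose at least 44.1-fold and Bglap2, an osteocalcin gene, at least 37.6-fold, both from no read. Both could pass the filter on low counts only through day 3, so their calls are descriptions. Bglap2 and Sprr2b have near-identical neighbors, and the split of reads among the copies is uncertain. The next genes in the order of size were Cyp4f39 at 8.24 and Fetub at 6.91 on the log2 scale.

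Nucleolar genes were higher almost throughout. Of 54 tested genes of the nucleolus and ribosome biogenesis, 52 were higher, none was lower, 46 rose more than 2-fold, and the median was 1.65. Lyar, a nucleolar factor of rRNA processing, had 25.6, 32.6 and 25.9 in MEFs and 231, 204 and 203 on day 3 (log2 fold change 3.04, SE 0.25, adjusted p = 9.09e-16). Nop16, a component of the large subunit precursor and a Myc target, had 264, 355 and 232 in MEFs and 1662, 1662 and 1233 on day 3 (log2 fold change 2.53, SE 0.22, adjusted p = 5.50e-15). Ddx18, a helicase of the nucleolus and also a Myc target, had 266, 223 and 238 in MEFs and 952, 1049 and 883 on day 3 (log2 fold change 2.10, SE 0.20, adjusted p = 4.42e-13).

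The 3 nucleolar genes whose E-boxes are shown above rose as well, with the match beginning at +35 from the start site of Grwd1, +41 of Mybbp1a and -121 of Imp4. Grwd1, a histone-binding protein of ribosome assembly, had 14.4, 29.3 and 23.3 in MEFs and 98.1, 105 and 104 on day 3 (log2 fold change 2.30, SE 0.28, adjusted p = 8.06e-10). Mybbp1a, which takes part in rRNA transcription, had 29.996, 45.6 and 66.5 in MEFs and 179, 178 and 124 on day 3 (log2 fold change 1.84, SE 0.25, adjusted p = 1.19e-08), and Imp4, a part of the small subunit processome, had 108, 93.3 and 76.1 in MEFs and 268, 281 and 258 on day 3 (log2 fold change 1.66, SE 0.21, adjusted p = 2.76e-09). The summed level of the whole list was 6233 to 6707 CPM in MEFs and 21102 to 22344 CPM on day 3, so that the list took up more than 3 times as large a share of the reads, while Myc itself was counted at a lower level on day 3.

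Other Myc targets of metabolism and growth rose less uniformly, with 27 of 39 tested higher, 4 lower and a median of 0.73. Shmt1, an enzyme of folate metabolism, had 24.4, 9.77 and 23.3 in MEFs and 145, 141 and 139.8 on day 3 (log2 fold change 2.98, SE 0.28, adjusted p = 1.70e-13), and Tfrc, the transferrin receptor, had 77.8, 80.3 and 92.5 in MEFs and 479.6, 416 and 483 on day 3 (log2 fold change 2.57, SE 0.21, adjusted p = 1.96e-15). Hk2, hexokinase, rose by 1.89 on the log2 scale (adjusted p = 1.29e-11), whereas Slc2a1, the glucose transporter upstream of it, fell (from 92.2, 73.8 and 89.0 in MEFs to 18.7, 19.5 and 20.3 on day 3, adjusted p = 6.42e-08) and so did Pkm, the last kinase of glycolysis (log2 fold change -0.82, adjusted p = 0.000576). Of 40 tested genes for the cytosolic proteins of the ribosome itself, 12 were higher, 1 was lower and 27 were not called. Their median was 0.24, and 1 rose by more than 2-fold. Over all genes tested, 24.7% were higher and 26.4% lower. Rps7 rose most, from 865, 798 and 610.2 in MEFs to 1787, 1751 and 1793 on day 3 (log2 fold change 1.35, SE 0.20, adjusted p = 1.48e-07).

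Genes of the cell cycle were higher or not called, with few exceptions. Of 36 tested DNA replication genes, 18 were higher and 1 was lower (median 0.54), and of 33 tested mitosis genes, 17 were higher and 1 was lower (median 0.72). The shares over all genes tested were 24.7% higher and 26.4% lower. Aurka, a kinase of the spindle poles, had 132, 87.9 and 131 in MEFs and 535, 422 and 363 on day 3 (log2 fold change 2.02, SE 0.22, adjusted p = 1.17e-11). Rfc4, a subunit of the clamp loader, rose from 48.9, 81.4 and 58.8 in MEFs to 213, 189 and 179.6 on day 3 (log2 fold change 1.74, SE 0.23, adjusted p = 5.57e-09). Tk1, thymidine kinase, was the replication gene that fell, from 72.2, 82.5 and 43.2 in MEFs to 13.4, 13.0 and 8.13 on day 3 (log2 fold change -2.41, SE 0.35, adjusted p = 7.37e-08).

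Genes of p53, senescence and cell cycle inhibition were lower in 12 and higher in 4 of 24 tested (median -0.61). The shares over all genes tested were 26.4% lower and 24.7% higher. Cdkn1a (p21), a barrier to reprogramming that p53 induces, had 1014, 1027 and 820.2 in MEFs and 879, 914 and 788 on day 3 and was not called (log2 fold change -0.03, SE 0.20, adjusted p = 0.901). Cdkn2a, the Ink4a/Arf gene, had too few reads to test, with 8.89, 14.1 and 13.8 in MEFs and 1.78, 5.19 and 3.25 on day 3. Cdkn2b, its neighbor, had 111, 94.4 and 117 in MEFs and 14.3, 19.5 and 13.0 on day 3 (log2 fold change -2.69, SE 0.30, adjusted p = 2.63e-11). Pmaip1 (Noxa), a pro-apoptotic p53 target, fell (log2 fold change -3.03, adjusted p = 2.48e-15), while Perp, a p53 target that is also a desmosomal protein, rose from 93.3, 92.3 and 97.7 in MEFs to 355, 331 and 451 on day 3 (log2 fold change 2.12, SE 0.21, adjusted p = 1.49e-12).

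Most genes of the pluripotency network had few or no reads on day 3. Of 41 pluripotency-associated genes, 34 had too few reads to test, 25 of these with 3 reads or fewer in every library, and among the 7 tested 5 were higher and 1 was lower (median 1.73). Called higher were 8 by DESeq2's Wald test or without the filter on low counts and 9 in the fit of all 30 libraries. Of the 41 genes, 19 had no read in any MEF library and could be tested only through day 3, so the count of calls is a description. L1td1, an RNA-binding protein of pluripotent cells, had no read in MEFs and 33.0, 27.2 and 26.8 on day 3, at least 8.71-fold higher. Zfp296, a zinc finger gene of the ESC network, had 3 reads in MEFs and 73 on day 3, a ratio of 23.2 (exact 95% counting interval 7.63 to 115). Its MEF reads all lay in library 1, and the fitted log2 fold change went from 4.50 to 7.68 without that library and to 3.86 without MEF library 3. Mkrn1 and Mybl2, which are also expressed outside pluripotent cells, rose by 1.53 and 1.73 on the log2 scale (adjusted p = 6.50e-05 and 0.000938), the latter by 2.52 without MEF library 1.

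Of 23 tested chromatin regulators of the ESC state, 7 were higher and 2 were lower, with a median of 0.40. By more than 2-fold, 4 were higher and 2 lower. Of all genes tested, 24.7% were higher and 26.4% lower. Prmt5, an arginine methyltransferase, rose from 68.9, 76.0 and 49.3 in MEFs to 142, 117 and 133 on day 3 (log2 fold change 1.14, SE 0.24, adjusted p = 5.06e-05). Hmga2, an architectural chromatin protein of embryonic mesenchyme, fell from 421, 581 and 757 in MEFs to 103, 112 and 117 on day 3 (log2 fold change -2.29, SE 0.22, adjusted p = 2.68e-13), and so did Suz12, a core subunit of PRC2 (log2 fold change -1.33, adjusted p = 0.000383). Interferon-stimulated genes were lower in 6 and higher in 2 of 14 tested (median -0.53). Ifitm3, an antiviral membrane protein, fell from 2217, 2184 and 1289 in MEFs to 537, 729 and 592 on day 3 (log2 fold change -1.50, SE 0.21, adjusted p = 3.88e-08), and Xaf1 rose by 2.40 on the log2 scale (adjusted p = 2.20e-05).

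**Figure D3:**
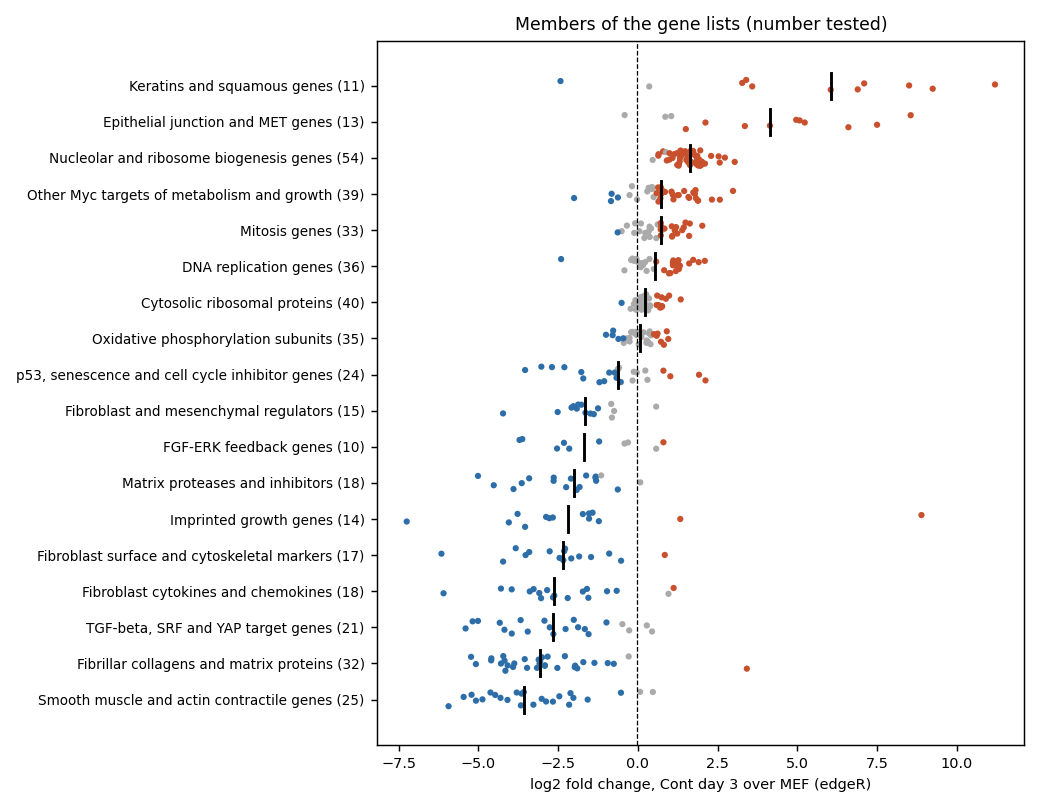
Log2 fold change from MEF to Cont day 3 (horizontal axis) of each tested gene of the lists named on the vertical axis, with the number tested in brackets. Red points were called higher, blue points lower and grey points not, and the black bars are medians. The contractile, matrix and TGF-β, SRF and YAP lists lie to the left of 0 with medians of -3.58, -3.08 and -2.65, and the nucleolar list to the right with a median of 1.65.

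Markers of cell types that a MEF culture or an imperfect sort could hold were checked. Macrophage markers were lower in 6 and higher in none of 11 tested, with summed levels of 406 to 1294 CPM in MEFs and 272 to 726 CPM on day 3, and they were highest in MEF library 1. The share lower over all genes tested was 26.4%. Called lower were 2 without MEF library 1 and 10 without MEF library 3, so the count rested on single libraries. Ctss, a lysosomal protease of macrophages, had 136, 95.5 and 41.5 in MEFs and 41.0, 50.6 and 13.8 on day 3 (log2 fold change -1.29, SE 0.33, adjusted p = 0.000764), and Csf1r and Ptprc, which define macrophages and leukocytes, had 34 and 14 reads in MEFs and 4 and 12 on day 3. Endothelial markers were at similar sums in both groups (32.5 to 51.6 and 33.1 to 48.5 CPM), with 1 of 3 tested higher and 1 lower, and Cdh5 had no read in either group. Their part in the results above was not tested.

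Fibroblast markers were lower in 8 and higher in 1 of 10 tested (median -2.69), the latter being Dcn, and their sum went from 2648 to 4387 CPM in MEFs to 641 to 899 CPM on day 3. The muscle markers tested, Acta1, Actc1 and Des, were all lower, and their list summed to 413 to 505 CPM in MEFs and 14.5 to 27.2 CPM on day 3. Acta1 made up most of the sum in MEFs. Acta1 and Actc1 are also members of the contractile list above, so their falls are not a separate result. Of the ESC markers, Pou5f1 and Sox2 were tested and higher, with list sums of 4.96 to 8.76 and 38.8 to 47.0 CPM, and Nanog, Esrrb and Gdf3 had no read on day 3. Pou5f1 and Sox2 are factors of the cassette, and whether its transcripts were counted under them was not tested.

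Neural markers rose in sum from 248 to 336 CPM to 3153 to 3918 CPM, and a single gene made up most of it. Stmn2, a regulator of microtubules in neurons, had 231, 244 and 185 in MEFs and 4769, 5955 and 4577 on day 3 (log2 fold change 4.65, SE 0.24, adjusted p = 2.29e-23). Tubb3, neuronal tubulin, rose from 43.3, 48.8 and 35.4 in MEFs to 367, 501 and 307 on day 3 (log2 fold change 3.32, SE 0.24, adjusted p = 8.82e-18), while Nes, nestin, fell from 73.3, 104 and 156 in MEFs to 1.78, 15.6 and 16.3 on day 3 (log2 fold change -3.23, SE 0.36, adjusted p = 4.40e-11) and so did Fabp7 (log2 fold change -1.90, adjusted p = 4.22e-06). In all, 2 of 5 tested neural markers were higher and 2 were lower, and Snap25 and Ncan had no read in either group.

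The blood list summed to 2.40 to 3.13 CPM in MEFs and 131 to 215 CPM on day 3, which was mostly Hbb-y, with the erythroid gene Alas2 at 5 reads in the day 3 libraries together. Of the cartilage and bone markers, the osteocalcin gene Bglap was higher and Col2a1, cartilage collagen, was lower (-1.90 on the log2 scale, adjusted p = 5.66e-06), with list sums of 28.2 to 54.6 and 19.6 to 29.5 CPM. Bglap had no read in MEFs and could pass the filter on low counts only through day 3, so its call is a description. Bglap is a near-identical neighbor of Bglap2, and the split of reads between them is uncertain. Sp7 and Ibsp, which define osteoblasts, had no read on day 3. Of 5 sex-linked genes, Ddx3y, on the Y chromosome, was lower on day 3 (log2 fold change -0.68, SE 0.21, adjusted p = 0.00669), a call lost without Cont day 3 library 3 (adjusted p = 0.109) and in plate row B wells alone, and the others were not called.

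Values of the later groups show where the day 3 levels stood in the later course. In a fit of all 30 libraries that tested 10979 genes, 323 genes were higher in Cont day 6 than in Cont day 3 (2.94%) and 217 were lower (1.98%), whereas 2622 were higher in ESCs than in Cont day 3 (23.9%) and 3244 were lower (29.5%). These comparisons share the Cont day 3 libraries with the one above. Cdh1 went on rising after day 3, with a mean of 17.9 ± 6.31 on day 3 (SD, n = 3) and 151 ± 15.4 on day 6 (log2 fold change 3.04, adjusted p = 6.42e-10), and Krt8 likewise, from 132 ± 20.5 to 692 ± 102 (log2 fold change 2.40, adjusted p = 4.81e-08). Pou5f1 went from 19.6 ± 5.35 to 63.2 ± 10.8 (log2 fold change 1.66, adjusted p = 0.000115) and stood at 274 ± 74.0 in ESCs. Whether the Pou5f1 counts on days 3 and 6 include cassette transcripts was not tested.

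Sprr2b fell back from 339 ± 105 on day 3 to 79.2 ± 27.6 on day 6 (log2 fold change -2.10, adjusted p = 0.000115) and Hbb-y from 267 ± 66.8 to 121 ± 36.6 (log2 fold change -1.14, adjusted p = 0.03). Krt6a and Krt14 stood at 192 ± 28.3 and 255 ± 40.3 on day 6 and had no read in ESCs. Tdh was the only gene among the 12 largest rises that was called higher in ESCs than on day 3, with 309 ± 55.2 on day 3 and 929 ± 302 in ESCs (ESC against day 3, log2 fold change 1.58, adjusted p = 6.26e-07). Acta1 fell further by day 6, from 20.4 ± 11.8 to 3.16 ± 4.88 (log2 fold change -2.60, adjusted p = 0.00552). Mybbp1a went back from 160.1 ± 31.7 on day 3 to 84.7 ± 21.2 on day 6 (log2 fold change -0.91, adjusted p = 0.0147), still above the MEF mean of 47.4 ± 18.3.

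**Figure D4:**
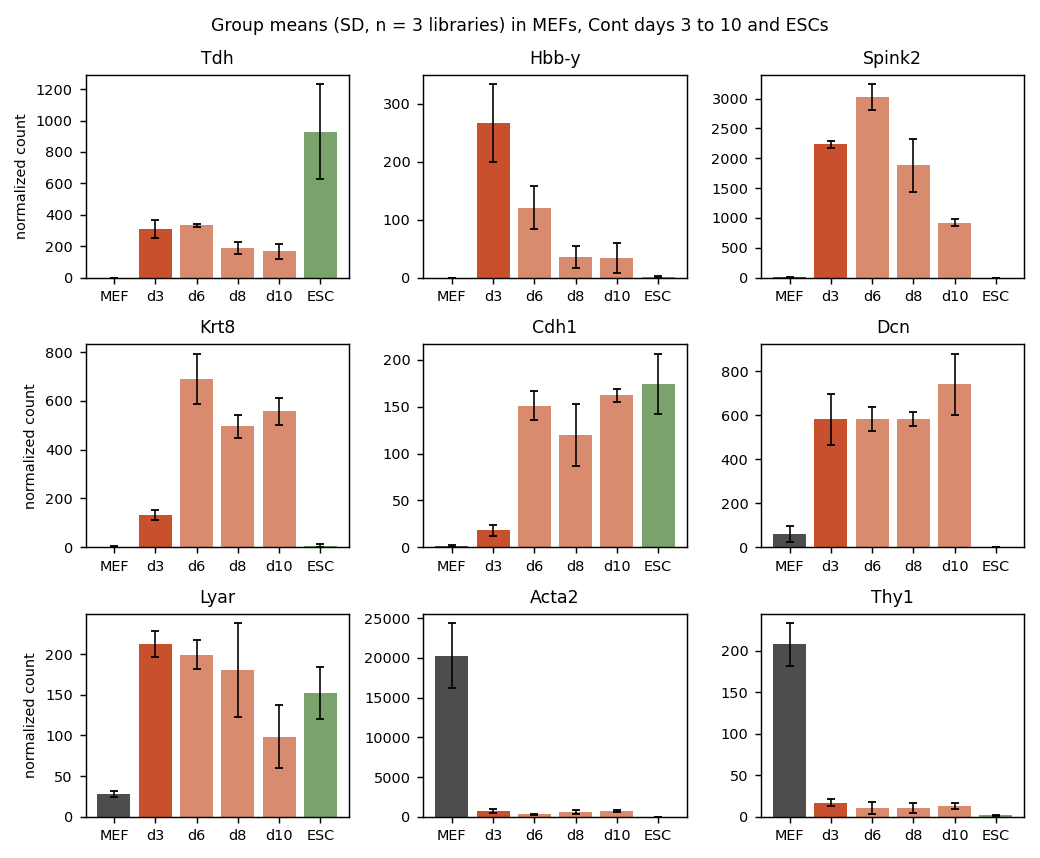
Mean normalized counts (vertical axes from 0, linear) of 9 genes in MEFs, control cells on days 3, 6, 8 and 10, and ESCs, with error bars of 1 SD over 3 libraries. Acta2 and Thy1 were already low on day 3, Hbb-y was highest on day 3, and Krt8 and Cdh1 rose further by day 6.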

How the data were processed

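STRT RNA-seq libraries were made by the authors from small pools of cells in single wells of a plate. The deposited values are raw read counts per gene and well, not normalized, for 18909 genes. The paper's text states that reads, not molecules, were counted, and the submitters' processing notes name Bowtie 0.12.9, the build mm10 and DESeq2 1.6.3. Reads are not independent molecules, so counting intervals cover counting error only.

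All 84 wells were assigned to a group and replicate by their titles, and counts of the wells of a replicate were summed. The 18 wells compared held 220714 to 846056 reads. Replicates are labelled as biological. The p-values rest on the spread between them, with the estimate for each gene drawn towards that of all genes tested.

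Counts of the 6 libraries were fitted with edgeR 4.0.16 in R 4.3.3 (filterByExpr, TMM, glmQLFit and glmQLFTest) and p-values adjusted by the Benjamini-Hochberg method over 8776 genes, with a threshold of 0.05. The other 10133 genes were not tested, 6172 of them with 3 reads or fewer in every library. Normalized counts used DESeq2 1.42.0 size factors over all 30 libraries. A group with no read was set to a floor of 3 reads in 1 library for lower bounds of folds, and groups of 1 to 3 reads are given as ratios of summed reads with an exact 95% interval. CPM are reads of a gene scaled to the same total in each library.

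The members and the 36 gene lists were chosen with earlier results of these data known, and 3 further groups (mitochondrial messenger and transfer RNAs, metallothioneins) after the values were seen. Genes were named by a rule: a fixed set of factors and markers, the 12 largest changes each way (higher group averaging 100 or more, no overlap of libraries), and up to 6 called examples each way of a list with a group mean of at least 20. Where a gene falls outside the rule, it marks a cell type, shares a pair or a promoter motif with a named gene, or is stated to be chosen after its values were seen. Some genes that the rule names are not reported here. Positions are from GENCODE (17433 symbols matched) and promoter windows from RefSeq, both of GRCm38.

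Alternatives were DESeq2 size factors, total library size, DESeq2's Wald test, no filter on low counts, a fit of all 30 libraries, a replicate block, wells of a single plate row, a stricter fold and the omission of each library. The main fit had no block, since the design text pairs replicate numbers only over days within a reprogramming series. Deviations of same-numbered MEF and Cont day 3 libraries had correlations of -0.0231, 0.0481 and 0.0922. With 3 libraries a side these cannot show whether the numbers pair.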

Additional observations from a re-analysis of the deposited data

How the results depend on the processing

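With 1 library left out, 1929 to 2434 genes were called higher and 2029 to 2403 lower, and 1490 to 1609 and 1719 to 1831 by more than 2-fold. With other scalings, tests or filters over all wells the ranges were 1915 to 2647, 2012 to 2524, 1287 to 1993 and 1688 to 2078. Wells of plate row A, B or C alone gave 1234, 1255 and 1438 genes higher and 1197, 1378 and 1503 lower, of which 865, 894 and 951 and 917, 1088 and 1124 by more than 2-fold, with fewer reads and only 5186, 5596 and 5733 genes tested. Past 4-fold, 459 were higher and 738 lower. Scaling by total library size moved the median of all genes from -0.03 to -0.12 on the log2 scale. Single plate rows called fewer epithelial genes (4, 4 and 5 higher) and pluripotency genes (2, 1 and 2). Of genes not called, Tagln2 of the contractile list and Id2 of the TGF-β list were called higher with DESeq2 size factors, with DESeq2's Wald test and without the filter, among others, and Hoxb7 with DESeq2 size factors and in the fit of all 30 libraries.

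Whether the replicate numbers pair MEF with Cont day 3 samples is not stated. With a replicate block, 2182 genes were called higher and 2280 lower, 1474 and 1728 of them by more than 2-fold, and no call among the 214 named genes changed.

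Of 3278 values of the named genes under the alternatives, 3147 kept their direction and call, 124 lost the call and 7 changed sign. The sign changes were those of genes not called: Cdkn1a, at -0.03, went to 0.02 with DESeq2 size factors (0.0154), 0.02 with DESeq2's Wald test (0.0154), 0.02 without a filter (0.0224), 0.02 and 0.03 without MEF library 1 or 2 (0.018 and 0.029), and 0.05 without Cont day 3 library 3 (0.0501). Klf4, at -0.21, went to 0.02 without MEF library 1 (0.0233) and lay between -0.35 and 0.02 with any 1 library left out. The cause was not tested. Fitted log2 fold changes of genes with 1 to 4 reads in the lower group moved with a single library: without MEF library 3, Krt14 went from 9.25 to 11.05, Krt16 from 8.51 to 11.09 and Aldh3a1 from 8.68 to 10.48; without MEF library 1, Mal went from 9.11 to 10.99 and Sprr2b from 8.84 to 11.51; without Cont day 3 library 3 Mylk went from -5.47 to -7.30, and without library 1 Actc1 from -4.48 to -3.83. At 1288666 to 1935592 reads per library, 10133 genes had too few reads for a test, among them most pluripotency and epithelial genes listed, and absence and a low level cannot be told apart for these.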

Other observations

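Imprinted growth genes, which are expressed from a single parental allele and are known to regulate fetal growth, were mostly lower on day 3. Of 14 tested, 12 were lower and 2 were higher, with a median log2 fold change of -2.20, or -2.03 with genes at 0 reads in a group set to their bound, beside a median of -0.03 for all genes tested. H19, a fetal noncoding RNA, had normalized counts of 307, 272 and 368 in the MEF libraries and 23.2, 22.1 and 18.7 in the Cont day 3 libraries (log2 fold change -3.77, SE 0.25, adjusted p = 4.84e-19). Meg3, another imprinted noncoding RNA, had 317, 280.0 and 476 in MEFs and 33.0, 44.1 and 56.9 on day 3 (log2 fold change -2.88, SE 0.24, adjusted p = 3.34e-15), and Peg3, a zinc finger gene, had 36.7, 57.5 and 83.0 in MEFs and 2.67, 3.89 and 3.25 on day 3 (log2 fold change -4.05, SE 0.45, adjusted p = 5.50e-11). All 3 genes were lower in every day 3 library. Phlda2, which restrains growth of the placenta, moved the other way, from no read in MEFs to 59.7, 44.1 and 63.4 on day 3, at least 16.7-fold higher, and Mest rose from 33.3, 45.6 and 38.0 in MEFs to 90.9, 94.7 and 87.0 on day 3 (log2 fold change 1.33, SE 0.26, adjusted p = 2.01e-05). Phlda2 could pass the filter on low counts only through day 3, so its call is a description. Of 37 Hox genes in the table, the position code of the embryonic trunk and limbs, 7 had enough reads to test, 6 of these were lower and none was higher (median -1.68), while 12 were lower without the filter on low counts. Hoxc8 had 31.1, 36.9 and 33.7 in MEFs and 3.57, 2.59 and 4.88 on day 3 (log2 fold change -3.00, SE 0.48, adjusted p = 5.76e-07).

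Metabolic and stress genes showed no common direction. Of 21 tested genes of the integrated stress response, 7 were higher and 6 were lower, with a median of 0.00. Among all genes tested, 24.7% were higher and 26.4% lower. Nupr1, a stress-induced chromatin protein, rose from 1359.8, 1744 and 1142 in MEFs to 3269.7, 3541 and 2404 on day 3 (log2 fold change 1.23, SE 0.21, adjusted p = 2.75e-06), and Ddit3 (CHOP), the pro-apoptotic factor of this response, fell from 132, 145 and 109 in MEFs to 37.4, 44.1 and 39.8 on day 3 (log2 fold change -1.56, SE 0.25, adjusted p = 4.33e-07). Of 35 nuclear-encoded subunits of oxidative phosphorylation, 7 were higher, 5 were lower and 23 were not called (median 0.07). The number lower was 2 without Cont day 3 library 1, 3 without MEF library 1 or Cont day 3 library 2, 8 when scaled by total library size and 9 without MEF library 3, so which direction was the more frequent depended on the setting. Cycs, cytochrome c, rose from 2673, 3213 and 2098 in MEFs to 4814, 5368 and 4114 on day 3 (log2 fold change 0.95, SE 0.22, adjusted p = 0.00019), and Sdhc, a subunit of complex II, fell from 419, 504 and 265 in MEFs to 188, 209 and 153 on day 3 (adjusted p = 8.89e-05).

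Genes encoded by the mitochondrial genome, a group chosen after the values were seen, were higher on day 3. Of the 13 messenger RNAs, 10 were higher and none was lower (median 0.89), and of 14 tested transfer RNAs among 20 in the table, 13 were higher (median 1.77). The method counts poly(A) transcripts, and which transcripts gave the reads assigned to transfer RNA genes was not tested. The messenger RNAs summed to 43866 to 47486 CPM in MEFs and 71679 to 78623 CPM on day 3. The ribosomal RNA mt-Rnr2 rose from 64804, 54515 and 50357 in MEFs to 139948, 165771 and 143282 on day 3 (log2 fold change 1.52, SE 0.27, adjusted p = 3.26e-06), and mt-Rnr1 rose as well (log2 fold change 0.78, adjusted p = 0.00323). With the ribosomal RNAs included, genes of the mitochondrial genome took on average 18.0% of the reads of the Cont day 3 libraries and 8.74% of those of the MEF libraries. Without these genes, an alternative chosen after seeing the data, 2191 genes were called higher and 2254 lower, against 2171 and 2320 with them. The metallothioneins Mt1 and Mt2, metal-binding proteins induced by zinc and by stress and also looked at after the values were seen, were both higher. Mt1 had 419.9, 334 and 216 in MEFs and 1698, 2021 and 1394 on day 3 (log2 fold change 2.51, SE 0.22, adjusted p = 2.58e-14), and Mt2 had 35.6, 17.4 and 15.6 in MEFs and 403, 342 and 379.6 on day 3 (log2 fold change 4.17, SE 0.26, adjusted p = 3.57e-20).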
